A study of Mus musculus with 8 samples.

Results

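Interferon response genes were examined in whole kidneys of 4 male mice lacking Ctrp1 (KO) and 4 wild-type (WT) male littermates. The set held 42 genes chosen by name, 25 classed as type I interferon targets and 17 as interferon-gamma targets, and all 42 were found by symbol among the 35275 genes of the deposited expression table. Ctrp1 is the secreted C1q/TNF-related protein encoded by C1qtnf1. KO mice were homozygous for an allele lacking 679 bp of exon 4, which covers the coding part of that exon and some of the 3' untranslated region. The allele was made in 129S5/Sv embryonic stem cells and crossed to C57BL/6J for more than 6 generations, and both genotypes came from crosses of heterozygotes. All 8 mice ate a diet with 60% of calories from fat from 6 weeks of age, and the left kidney was frozen whole and its poly(A) RNA sequenced, with the age given as 40 weeks. The comparison asks whether loss of Ctrp1 was accompanied by a different level of these genes in the kidney. The design rests on 1 targeted line, with 1 library per mouse and no litter, cage or batch stated. Each comparison is given with and without 1 library, that of KO replicate 4. Both the members and that library were picked with earlier results of these data known. Counts of members set beside shares of all genes are therefore a description only.

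Type I interferons act through the receptor made of IFNAR1 and IFNAR2, the kinases JAK1 and TYK2, and a complex with STAT2 and IRF9 that binds interferon-stimulated response elements. Interferon-gamma acts through IFNGR1, IFNGR2, JAK1 and JAK2, leads to binding at gamma-activated sites, and induces IRF1, which then acts on response elements of the first kind. The programmes overlap: type I interferon is known for the IFIT, OAS and ISG15 genes, and interferon-gamma for guanylate-binding proteins, immunity-related GTPases, the immunoproteasome and peptide loading onto MHC class I. In the kidney, tubular and endothelial cells as well as leukocytes can respond to interferon.

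Libraries held 17884140 to 20344859 reads, as recovered from the step size of the deposited FPKM (fragments per kilobase, scaled to a fixed sequencing depth). C1qtnf1 (chr11:118428203-118449963, mm10) averaged 5.42 ± 0.141 FPKM over the WT mice and 0.610 ± 0.230 FPKM over the KO mice (SD, n = 4 each), and every KO mouse lay below every WT mouse. The limma fit over 12118 genes with a mean of at least 1 FPKM called 2 genes higher and 3 lower in KO at an adjusted p under 0.05. KO replicate 2 stood apart in many genes: it held the highest value of the 8 mice for 32.1% of all genes tested, and its array weight was 0.10 against 0.637 to 2.31 in the other libraries. Urothelial markers were higher in the KO kidneys, with a summed level of 3.98 to 10.2 FPKM in WT and 14.8 to 34.1 FPKM in KO mice. Immediate early and heat shock genes lay at 80.1 to 102 FPKM in WT and 137 to 286 FPKM in KO mice when summed. The part of these groups in the members' values was not tested.

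Before their levels are given, the members' promoters are shown, since response elements are what the members have in common by function. RefSeq promoters of build GRCm38.p6, from 250 bases before to 50 bases after each start, were matched by symbol for 32 of the 42 members, 38 promoters in all. The core of an interferon-stimulated response element, read as GAAA, any 2 bases and GAAA again on either strand, was present in 17 of the 38 member promoters (44.7%), against 3.44% of 32851 promoters of the same length. By class, 10 of 19 type I members and 6 of 13 interferon-gamma members held it. The letters of a gamma-activated site, TTC, any 3 bases and GAA, which read the same on both strands, were present in 9 of the 38 (23.7%), against 8.3% of all promoters. They were held by 4 of 19 type I and 5 of 13 interferon-gamma members. Both motifs were held by 2 type I and 2 interferon-gamma members. The 24-base windows below, 5′ to 3′ along the gene, each show 1 match to the response element core in capitals, which begins with TTTC and ends with TTTC where it lies on the other strand. The number in each name is the position of the match's first base relative to the RefSeq start.
Isg15 (chr4:156200868-156200891, minus strand, -66): ggaaaccGAAACAGAAAatagctc
Ifit1 (chr19:34640797-34640820, plus strand, -85): gtctcagTTTCAGTTTCtcactgc
Ifit3 (chr19:34583400-34583423, plus strand, -122): aagtctgTTTCAGTTTCtactttc
Oas1a (chr5:120907523-120907546, minus strand, -14): ggaaatgGAAACTGAAAatctact
Oas3 (chr5:120777718-120777741, minus strand, -75): gggaggaGAAAACGAAAgtgaagg
Stat2 (chr10:128270269-128270292, plus strand, -222): accctggTTTCAGTTTCctttccc
Rsad2 (chr12:26456556-26456579, minus strand, -120): gtccaacTTTCATTTTCagaaaac
Bst2 (chr8:71537580-71537603, minus strand, -124): ggaaaatGAAACTGAAAggctgca
Trim30a (chr7:104465213-104465236, minus strand, -36): tctttagTTTCTTTTTCtcagttc
Gbp2 (chr3:142620597-142620620, plus strand, -59): cttttagTTTCACTTTCactgtct
Gbp3 (chr3:142559998-142560021, plus strand, -39): gtttcagTTTCTATTTCccagatc
Gbp7 (chr3:142530276-142530299, plus strand, -53): tgtgcagTTTCAGTTTCagttctc
Igtp (chr11:58199515-58199538, plus strand, -34): aggaactGAAACTGAAAgctgttc
Irgm1 (chr11:48871428-48871451, minus strand, -24): agaaataGAAACCGAAActgattc
B2m (chr2:122147541-122147564, plus strand, -139): agaacatGAAACTGAAAatgggaa
Where a promoter held more than 1 match, as in Isg15, Ifit1, Ifit3, Oas1a, Bst2, Gbp3 and Irgm1, the one nearest the start is shown. Ifih1 held its match after the start, at 33, and that window is not printed. The next windows show the TTC to GAA match in capitals for 3 interferon-gamma members described below.
Irf1 (chr11:53769917-53769939, plus strand, -90): gcctgatTTCCCCGAAatgatga
Psmb8 (chr17:34198091-34198113, plus strand, -97): tccgctgTTCCCAGAAgatgccc
Igtp (chr11:58199504-58199526, plus strand, -45): tagccatTTCTAGGAActgaaac
In the Igtp promoter both motifs stand side by side, and the windows overlap. A match describes these letters only and does not show that a factor binds there.

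No member passed the test between KO and WT mice. Across the members, KO values were mostly a little above WT values, and the height of the group mean came largely from 1 kidney, that of KO replicate 4, in which all tested interferon-gamma targets were above every other mouse, by 1.40 times in Irf8 to 7.29 times in Gbp6. Of the 42 members, 37 reached the minimum mean of 1 FPKM and were tested, 21 type I and 16 interferon-gamma. The limma fit with Benjamini-Hochberg adjustment called 0 of the 37 higher and 0 lower, where 0.0165% of all genes tested were called higher and 0.0248% lower. limma-voom on the recovered reads also called 0 members. At an unadjusted p under 0.05, 8 of the 37 were higher in KO, 6 type I and 2 interferon-gamma, against 3.48% of all genes, and 0 were lower, against 2.47%. The lowest adjusted p of any member was 0.618, for Isg15 (limma).

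Fold changes of 35 of the 37 members were above 0, against 47.2% of all genes tested. Their median was 0.29 on the log2(scaled FPKM + 1) scale, with 0.17 for type I and 0.36 for interferon-gamma members and -0.01 for all genes. After scaling, values of all 4 KO mice exceeded those of all 4 WT mice in 4 of the 37 members, namely Ifit1, Ifit3, Oasl1 and Gbp7, against 2.33% of all genes. The opposite separation was found in 0 members, against 2.83% of all genes. Without KO replicate 4, 0 of the 37 members were called in either direction, where 0.033% of 12114 genes were called higher and 0.0413% lower. At an unadjusted p under 0.05, 2 members, both type I, were then higher in KO, against 3.42% of all genes, and 0 were lower, against 2.74%. Fold changes above 0 numbered 28 of 37, against 47.8%, and the median was 0.09, with 0.11 for type I and 0.07 for interferon-gamma members. The 3 other KO mice lay above all WT mice in 4 members, against 3.63% of all genes, and below them in 0, against 4.8%.

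KO replicate 4 held the highest value of the 8 mice in 34 of the 37 tested members, 18 of 21 type I and 16 of 16 interferon-gamma, whereas it was the highest mouse for 12.5% of all genes tested. The 3 exceptions were Rsad2, highest in WT replicate 1, Ifi44, highest in KO replicate 3, and Trim30a, highest in KO replicate 1. A value at least 1 above the WT mean on the log2(scaled FPKM + 1) scale was reached in KO replicate 4 by 15 of the 37, 3 of 21 type I and 12 of 16 interferon-gamma members, against 0.644% of all genes (78 genes). The added 1 understates the change of genes near 1 FPKM, so this count depends on level as well. Of type I, Oasl1, Parp14, Isg15 and Ifit1 fell short of it at 2.69, 2.14, 2.12 and 2.07 times their WT means. Of interferon-gamma, the row named Gbp5, Gbp7 and Tap2 did so at 2.63, 2.41 and 2.10 times. The ratio of FPKM in KO replicate 4 to the WT mean ran from 0.917 to 2.69 in type I members, with a median of 1.65. In interferon-gamma members it ran from 1.54 to 8.56, with a median of 2.79. These are values of a single mouse, and no test is given for them. Whole-kidney RNA was measured, so more cells of a type and more RNA per cell cannot be told apart.

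Averaged over its tested members after subtracting each gene's WT mean, the type I class stood at -0.06 to 0.07 (log2) in the WT mice and at 0.10, 0.05, 0.19 and 0.56 in KO replicates 1 to 4. The interferon-gamma class stood at -0.05 to 0.06 in the WT mice and at -0.07, 0.08, 0.13 and 1.40 in the KO mice, named in the same order. KO replicate 4 thus lay above the WT range in both classes, by more in the interferon-gamma class. Of the other 3 KO mice, KO replicates 1 and 3 lay above the WT range for type I targets and KO replicates 2 and 3 for interferon-gamma targets. The KO mean exceeded the WT mean by 0.22 for type I and by 0.38 for interferon-gamma targets, and without KO replicate 4 by 0.11 and 0.05.

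**Figure D1:**
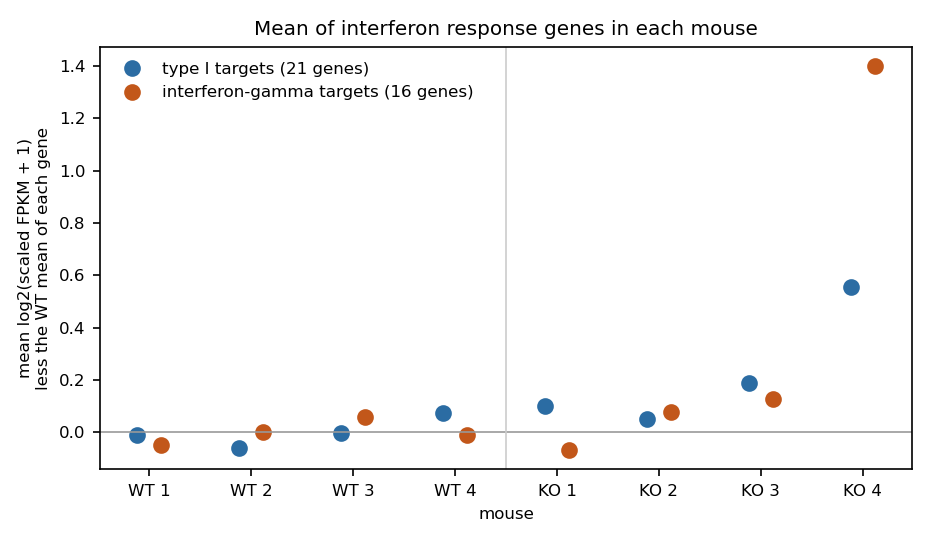
Each point is the mean of log2(scaled FPKM + 1) over the tested members of a class, less each gene's WT mean, for 1 mouse (x axis), with 21 type I targets in blue and 16 interferon-gamma targets in orange. KO replicate 4 reaches 0.56 and 1.40, while the other 7 mice lie between -0.07 and 0.19.

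The type I mean less the interferon-gamma mean was -0.06 to 0.08 in the WT mice and 0.17, -0.02, 0.06 and -0.84 in KO replicates 1 to 4. Its KO mean was below its WT mean by 0.16 with all mice and above it by 0.07 without KO replicate 4, so the order of the classes turned with that mouse. Restricted to the 13 tested type I and 9 tested interferon-gamma members whose class is least in doubt, the type I mean was -0.10 to 0.09 in WT mice and 0.11, 0.12, 0.22 and 0.59 in the KO mice. On the same narrow lists the interferon-gamma mean was -0.05 to 0.09 in WT mice and -0.08, -0.03, 0.11 and 1.52 in the KO mice. The lists were narrowed by class only, and the interferon-gamma list kept the rows named Gbp5 and Gbp6, which are uncertain as to the gene. The narrow type I mean therefore lay above all WT mice in each KO mouse, in KO replicate 1 by little, while the narrow interferon-gamma mean lay below all WT mice in KO replicate 1, within their range in KO replicate 2 and above it in KO replicates 3 and 4.

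**Figure D2:**
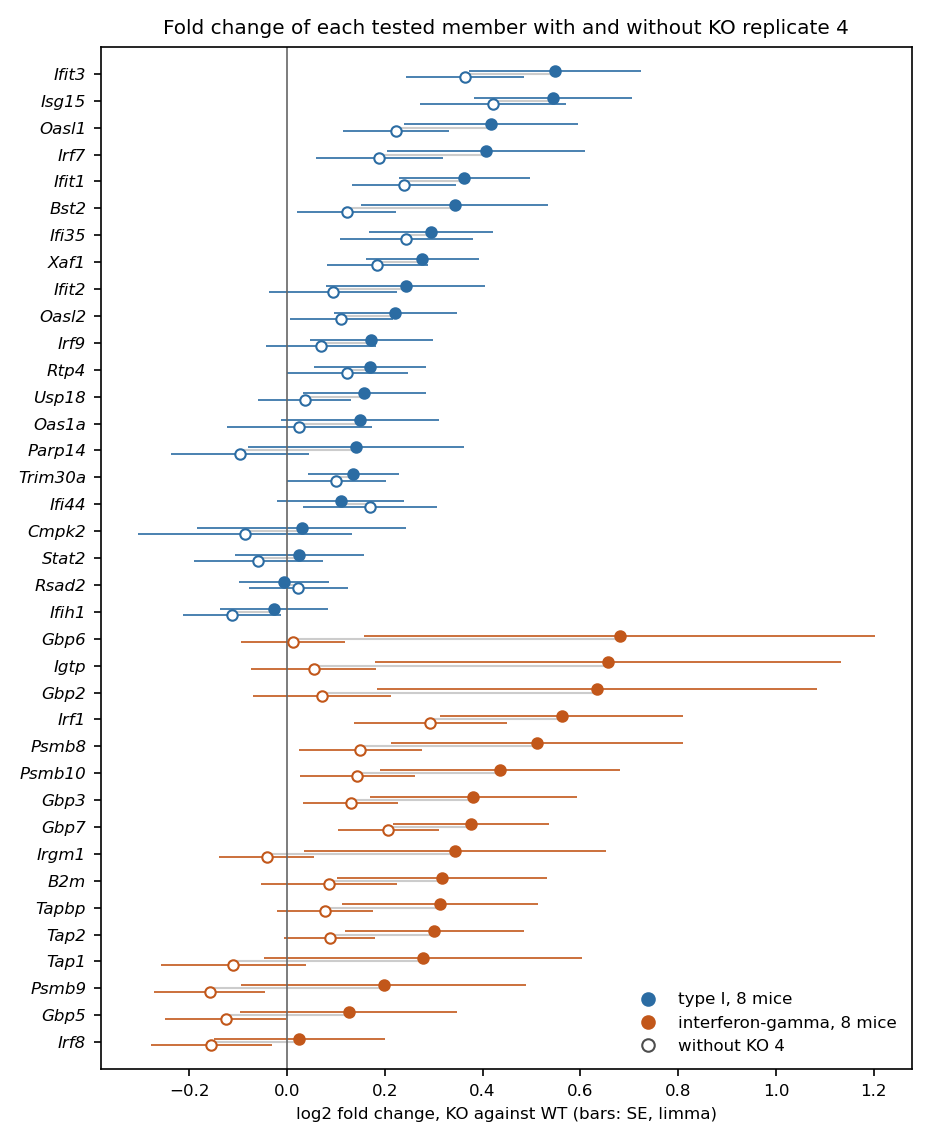
Log2 fold change of each tested member, KO against WT, with its SE from limma (x axis), for all 8 mice (filled) and without KO replicate 4 (open), type I targets in blue and interferon-gamma targets in orange. Filled points of Gbp6, Igtp and Gbp2 lie at 0.63 to 0.68 with SE of 0.45 to 0.52, and their open points lie at 0.01 to 0.07.

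Per-mouse FPKM values below are given in the order of replicates 1 to 4, and fold changes are on the log2(scaled FPKM + 1) scale, which understates the change of genes near 1 FPKM. Gene positions are those of GENCODE M21 (mm10). Between the 4 WT mice the tested members varied by a median coefficient of variation of 9.63% (2.30% to 26.6%), close to the 8.89% of all genes tested. Their WT means spanned 1.1 to 264 FPKM, and 34 to 9190 reads stood behind a single value.

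Among the transcription factors, none passed the test, and KO replicate 4 was the highest mouse for all 5. Irf1 (chr11:53770014-53778374), a factor induced by interferon-gamma, stood at 7.62, 8.97, 7.47 and 6.72 FPKM in WT and at 7.88, 11.8, 8.94 and 21.5 FPKM in KO mice. KO replicates 2 and 4 were above every WT mouse and the other 2 were inside the WT range. Its fold change was 0.56 ± 0.25 (SE, limma adjusted p = 0.822), and 0.29 ± 0.16 without KO replicate 4 (adjusted p = 0.762). Irf7, which drives the later wave of interferon-alpha transcription, stood at 7.69, 6.16, 8.58 and 7.82 FPKM in WT and at 7.70, 8.29, 9.70 and 16.9 FPKM in KO mice. As deposited, only KO replicates 3 and 4 exceeded the WT range of Irf7, and after scaling KO replicate 2 did so narrowly as well. The fold change of Irf7 was 0.41 ± 0.20 (limma adjusted p = 0.837). Stat2 and Irf9, which act together in the type I complex, had fold changes of 0.03 ± 0.13 and 0.17 ± 0.13. Irf8, a factor of myeloid and B cells, stood at 9.74, 10.1, 8.85 and 8.15 FPKM in WT and at 7.25, 7.05, 9.88 and 14.2 FPKM in KO mice. KO replicates 1 and 2 were below every WT mouse and KO replicate 4 above, and the fold change moved from 0.03 to -0.15 without KO replicate 4.

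Antiviral effectors and the ISG15 system held 3 of the 8 members with an unadjusted p under 0.05, and none passed the adjusted test. Isg15 (chr4:156199424-156200818), a ubiquitin-like protein joined to other proteins after interferon, had the lowest p of all members. It stood at 3.39, 2.86, 3.51 and 4.49 FPKM in WT and at 4.51, 5.75, 4.66 and 7.55 FPKM in KO mice. As deposited, the lowest KO value was just above the highest WT value, and after scaling the groups overlapped by these 2 mice, KO replicate 1 and WT replicate 4. The fold change was 0.54 ± 0.16 (limma adjusted p = 0.618), and 0.42 ± 0.15 without KO replicate 4 (adjusted p = 0.762).

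Ifit3 (chr19:34583531-34588731), of the IFIT family of antiviral proteins, stood at 8.79, 7.77, 7.84 and 8.65 FPKM in WT and at 9.39, 12.3, 10.5 and 18.9 FPKM in KO mice. The groups did not overlap, and the fold change was 0.55 ± 0.18 (limma adjusted p = 0.678), or 0.36 ± 0.12 without KO replicate 4 (adjusted p = 0.759). Ifit1, which binds RNA lacking the host's cap methylation, stood at 1.89, 1.46, 1.76 and 1.67 FPKM in WT and at 2.19, 2.31, 1.90 and 3.51 FPKM in KO mice. KO replicate 3 exceeded WT replicate 1 only narrowly, and the fold change was 0.36 ± 0.13 (limma adjusted p = 0.749). Their neighbour Ifit2 overlapped between the groups, at 1.92 to 2.94 FPKM in WT and 2.21 to 4.47 FPKM in KO mice.

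Bst2, tetherin, which holds budding virions at the cell surface, stood at 22, 21.6, 23.7 and 24.1 FPKM in WT and at 23, 23.2, 27.2 and 47.1 FPKM in KO mice. As deposited, KO replicates 3 and 4 exceeded the WT range, and after scaling KO replicate 2 did so narrowly as well. Usp18, which removes ISG15 and restrains the type I receptor, was at 1.79 to 2.37 FPKM in the 4 WT mice and at 2.18, 2.06, 2.21 and 3.51 FPKM in the KO mice, so only KO replicate 4 left the WT range. Rsad2, viperin, stood at 9.49, 7.51, 7.87 and 7.56 FPKM in WT and at 8.48, 6.97, 8.82 and 7.53 FPKM in KO mice. For Rsad2, KO replicate 4 was inside the WT range as deposited and just below it after scaling. The fold change was -0.01 ± 0.09 (limma adjusted p = 0.991), turning to 0.0077 with upper-quartile scaling. Cmpk2, a nucleotide kinase gene next to Rsad2 on chromosome 12, stood at 6.35 to 8.17 FPKM in WT and at 8.11, 3.62, 8.84 and 9.51 FPKM in KO mice, lowest in KO replicate 2.

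**Figure D3:**
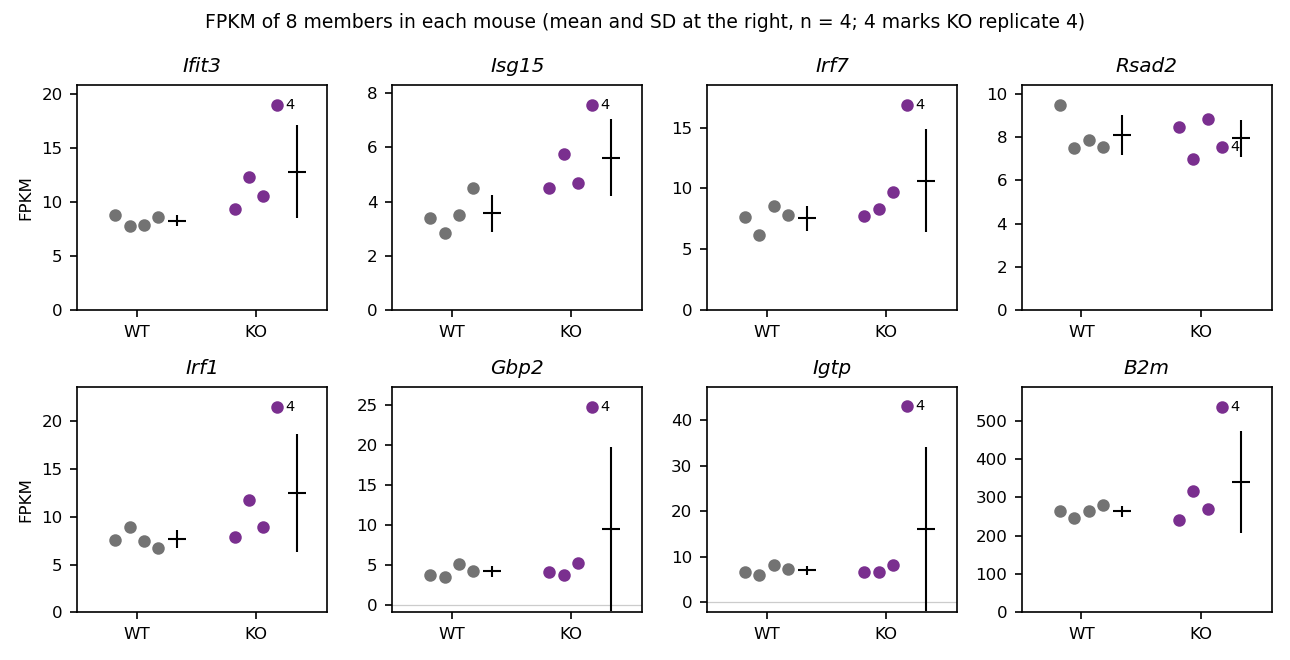
FPKM (y axis, linear) of 8 members in each WT (grey) and KO (purple) mouse, with the mean and SD of each group at its right (n = 4) and KO replicate 4 marked 4. Igtp and Gbp2 reach 43.0 and 24.8 in KO replicate 4 with the other 3 KO mice among the WT mice, Ifit3 does not overlap between the groups, and Rsad2 lies at 6.97 to 9.49 throughout.

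Among the sensors of foreign nucleic acid, Oasl1, an OAS-like protein without synthetase activity, did not overlap between the groups. It stood at 1.45, 1.21, 1.69 and 1.6 FPKM in WT and at 1.77, 1.84, 1.97 and 4.00 FPKM in KO mice, with a fold change of 0.42 ± 0.18 (limma adjusted p = 0.822). The 3 lower KO values were close to the highest WT value. Oasl2 was at 2.25 to 3.02 FPKM in WT and 2.60 to 4.28 FPKM in KO mice, and Oas1a, an oligoadenylate synthetase, at 1.24 to 2.43 and 1.63 to 3.03 FPKM. Ifih1, the long double-stranded RNA sensor MDA5, was at 2.57 to 2.91 FPKM in WT and at 2.76, 1.99, 2.53 and 3.42 FPKM in KO mice, and had 1 of the 2 negative fold changes, -0.03 ± 0.11. KO replicate 2 was the lowest mouse and KO replicate 4 the highest.

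Of the remaining type I members, Xaf1 and Ifi35 had unadjusted p under 0.05. Xaf1, a partner of the apoptosis inhibitor XIAP, stood at 1.23, 1.37, 1.16 and 1.34 FPKM in WT and at 1.36, 1.55, 1.78 and 2.35 FPKM in KO mice, overlapping by KO replicate 1, with a fold change of 0.28 ± 0.12 (limma adjusted p = 0.807). Ifi35 stood at 3.48, 4.84, 5 and 4.4 FPKM in WT and at 5.09, 5.67, 5.10 and 6.40 FPKM in KO mice, with a fold change of 0.29 ± 0.13 (limma adjusted p = 0.822). As deposited, the lowest KO value of Ifi35 was above the highest WT value, and after scaling they overlapped. Parp14, an ADP-ribosyltransferase, was at 2.37 to 2.67 FPKM in WT and at 2.59, 1.47, 2.87 and 5.39 FPKM in KO mice, spread on both sides of the WT range. Fold changes of Rtp4, Trim30a and Ifi44 were 0.17 ± 0.11, 0.14 ± 0.09 and 0.11 ± 0.13.

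Guanylate-binding proteins and immunity-related GTPases, which act on the membranes around intracellular pathogens, held the largest ratios of KO replicate 4 to the WT mean. Igtp (chr11:58199556-58207591) stood at 6.61, 5.87, 8.11 and 7.24 FPKM in WT and at 6.66, 6.53, 8.10 and 43.0 FPKM in KO mice. KO replicates 1 to 3 were inside the WT range and KO replicate 4 was 6.18 times the WT mean. The fold change was 0.66 ± 0.48 (limma adjusted p = 0.860), and 0.05 ± 0.13 without that mouse (adjusted p = 0.900).

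Gbp2 (chr3:142620602-142638008) had the same shape, at 3.76, 3.52, 5.13 and 4.22 FPKM in WT and at 4.07, 3.76, 5.15 and 24.8 FPKM in KO mice, with KO replicate 4 at 5.97 times the WT mean. The row named Gbp6 stood at 2.81, 2.45, 2.80 and 2.44 FPKM in WT and at 2.42, 2.33, 3.08 and 22.5 FPKM in KO mice, 8.56 times the WT mean in KO replicate 4. Irgm1, which controls the other GTPases of its family, stood at 9.82, 10.1, 11.1 and 9.70 FPKM in WT and at 9.79, 9.76, 9.39 and 30.8 FPKM in KO mice. In these 3 genes only KO replicate 4 stood clearly apart, and the fold changes of 0.63, 0.68 and 0.34 became 0.07, 0.01 and -0.04 without it.

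Gbp3 stood at 1.91, 2.21, 1.94 and 2.16 FPKM in WT and at 2.23, 2.23, 2.43 and 5.75 FPKM in KO mice, where the 3 lower KO values were just above the highest WT value as deposited, and after scaling KO replicate 1 was within the WT range. Gbp7 was the only tested interferon-gamma member whose groups did not overlap after scaling. Its deposited values were 1.71, 1.42, 1.53 and 1.54 FPKM in WT and 2.04, 2.05, 1.63 and 3.74 FPKM in KO mice. Before scaling, KO replicate 3 was below WT replicate 1, so the separation of Gbp3 and of Gbp7 each depended on the scaling. For Gbp7 the fold change was 0.38 ± 0.16 (limma adjusted p = 0.821), and 0.21 ± 0.10 without KO replicate 4. The row named Gbp5 was at 0.983 to 1.2 FPKM in WT and at 0.888, 0.612, 1.28 and 2.89 FPKM in KO mice, with KO replicates 1 and 2 below every WT mouse.

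Immunoproteasome subunits were all above the other 7 mice in KO replicate 4. Psmb8 (chr17:34197721-34201454) stood at 3.28, 3.6, 3.17 and 2.71 FPKM in WT and at 3.43, 4.16, 3.13 and 11.7 FPKM in KO mice. Psmb9 stood at 3.23, 2.55, 2.87 and 2.44 FPKM in WT and at 2.06, 2.21, 2.73 and 8.09 FPKM in KO mice. Psmb10 stood at 12.8, 15.1, 13.5 and 13.9 FPKM in WT and at 13.3, 16.2, 15.7 and 35.9 FPKM in KO mice. Each was thus 2.60 to 3.67 times its WT mean in KO replicate 4, while Psmb9 lay below the WT range in KO replicates 1 and 2. Psmb5, Psmb6 and Psmb7, the constitutive subunits that these replace, were not high in that mouse: their mean was 0.07 (log2) above WT in KO replicate 4 and 0.61 above it in KO replicate 2. The immunoproteasome mean was 1.39 in KO replicate 4 and 0.19 in KO replicate 2 on the same scale.

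Of the members that load peptides onto MHC class I, B2m and Tapbp had the highest levels of the set, while Tap1 and Tap2 were at 5.03 and 5.69 FPKM in WT. B2m (chr2:122147686-122153083), the light chain of class I, stood at 265, 246, 264 and 281 FPKM in WT and at 241, 318, 270 and 535 FPKM in KO mice. KO replicates 2 and 4 were above every WT mouse and KO replicate 1 below, and the fold change was 0.32 ± 0.21 (limma adjusted p = 0.860). Tap1, a subunit of the peptide transporter, stood at 4.63, 5.16, 5.16 and 5.18 FPKM in WT and at 4.36, 3.35, 6.12 and 15.5 FPKM in KO mice, so the KO mice lay on both sides of a narrow WT range. Its fold change moved from 0.28 ± 0.33 to -0.11 ± 0.15 without KO replicate 4. Tap2, the other subunit, and Tapbp, tapasin, reached 11.9 and 87.1 FPKM in KO replicate 4, against 5.43 to 5.98 and 40.4 to 45.8 FPKM in the WT mice.

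**Figure D4:**
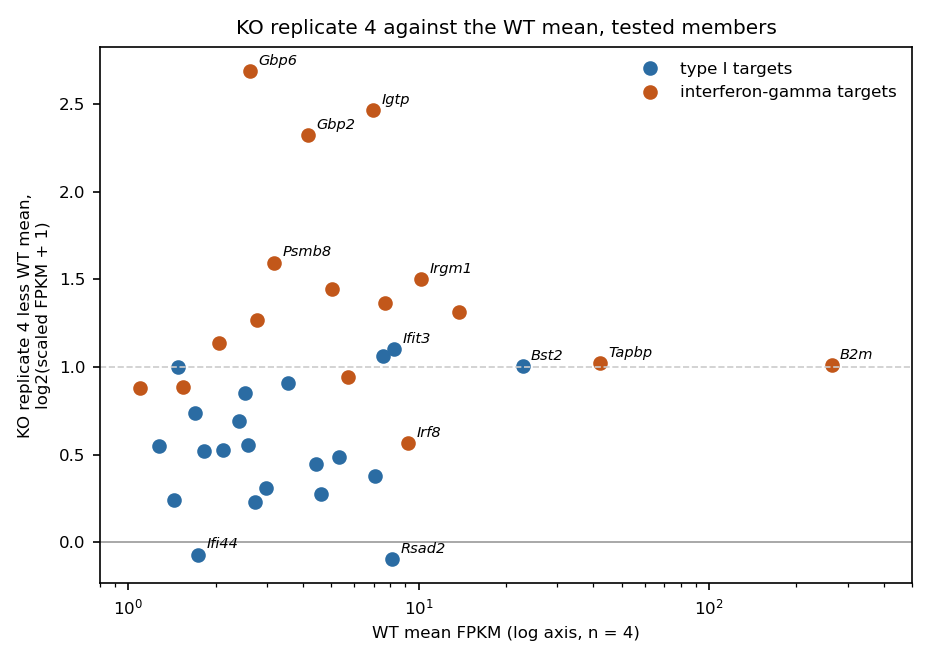
Value of KO replicate 4 less the WT mean on the log2(scaled FPKM + 1) scale (y axis) against the WT mean FPKM (x axis, log scale, n = 4) for the 37 tested members, with a dashed line at 1. Of the interferon-gamma targets (orange), 12 of 16 lie at or above the line, and 3 of 21 type I targets (blue) do. Those 12 have WT means from 2.06 (Gbp3) to 264 FPKM (B2m). The added 1 understates the change of genes near 1 FPKM. Below the line at 2.07 to 2.69 times their WT means are Oasl1, Parp14, Isg15, Ifit1, Gbp5, Gbp7 and Tap2.

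Members under the minimum were Oas2, Oas3, Mx1, Zbp1 and Gbp4, at 0.127 to 1.92 FPKM over all mice. Zbp1, a sensor of left-handed nucleic acid, was at 0.422 to 0.798 FPKM in the other 7 mice and at 1.90 FPKM in KO replicate 4. Gbp4 reached 1.92 FPKM there, against 0.761 to 0.883 FPKM in the WT mice, and Oas3 and Mx1 were also highest in that mouse, at 0.637 and 0.459 FPKM. Oas2 was highest in KO replicate 1, at 0.974 FPKM, with WT replicate 1 next at 0.822 FPKM.

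Of 32 genes for interferons, their receptors and signalling, 21 were tested and the limma fit called 0. At an unadjusted p under 0.05, 2 were higher, against 3.48% of all genes tested. Ifng, the gene of interferon-gamma, gave 2 reads in WT replicate 4, 1 in KO replicate 1 and 3 in KO replicate 4, which is too few to compare. Ifnb1, Ifne, Ifnl2 and Ifnl3 gave 0 reads in all 8 libraries, which by counting error alone allows up to 3 reads for each over the 153035815 reads of all libraries, and Ifnk gave 1 read in WT replicate 2. Of the receptor genes, Ifngr1 was at 13.1 to 15.2 FPKM in WT and 12.8 to 14.6 FPKM in KO mice. Ifngr2 was at 8.31 to 9.06 FPKM in WT and 7.63 to 8.18 FPKM in KO mice, each KO mouse below each WT mouse, with a fold change of -0.10 (limma adjusted p = 0.865). Ifnar1 was at 12.2 to 14.1 FPKM in WT and 10.0 to 12.7 FPKM in KO mice, lowest in KO replicate 2. Socs1, the feedback inhibitor of the kinases, was at 0.322 to 1.24 FPKM in WT and at 0.917, 0.980, 1.29 and 3.28 FPKM in KO mice. Of the 21 tested genes of this list, only Socs1 was at least 1 (log2) above the WT mean in KO replicate 4. The minimum for testing was a mean over all 8 mice, and without KO replicate 4 only 19 genes of this list reached it. Socs1 lies near that minimum. Socs3, a related inhibitor whose gene lies 0.47 Mb from C1qtnf1, had the lowest p of the list, at 2.09, 2.01, 1.94 and 1.87 FPKM in WT and 2.85, 2.22, 2.40 and 3.83 FPKM in KO mice, with a fold change of 0.36 and a limma adjusted p of 0.690. The part of chromosome 11 sequence carried along with the targeted allele was not tested. Nlrc5, the transactivator of class I genes, was at 0.772 to 0.964 FPKM in WT and at 2.06 FPKM in KO replicate 4.

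Among 64 further interferon-stimulated genes, 58 of which were found by symbol, none passed the test and GTPase relatives of the members were again highest in KO replicate 4. The limma fit called 0 of the 46 tested, with 1 higher at an unadjusted p under 0.05, against 3.48% of all genes tested. Fold changes of 29 were above 0, against 47.2% of all genes. Without KO replicate 4 they numbered 22 of 45, against 47.8%. In all, 7 of the 46 were at least 1 (log2) above the WT mean in KO replicate 4, against 0.644% of all genes tested, and all were relatives of the GTPase members or chemokines. Iigp1 reached 18.7, Irgm2 26.6, Tgtp1 12.5, Tgtp2 6.56, Ifi47 8.62, Cxcl9 4.71 and Cxcl10 15.8 FPKM there. Ifi27l2a had another shape, at 8.73, 8.40, 7.08 and 10.9 FPKM in WT and 12.7, 13.5, 13.2 and 14.7 FPKM in KO mice. Its groups did not overlap and no single KO mouse stood apart, with a fold change of 0.60 with all mice (limma adjusted p = 0.199) and 0.57 without KO replicate 4 (adjusted p = 0.482).

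Antigen presentation genes outside the set were read for both MHC classes, and the limma fit called 0 of 13 class I and 0 of 7 class II genes, with 0 in each at an unadjusted p under 0.05. Of all genes tested, 3.48% were higher and 2.47% lower at that unadjusted threshold. The class I heavy chain gene H2-K1 was at 198 to 222 FPKM in WT and at 468 FPKM in KO replicate 4. It was the only 1 of the 13 class I genes at least 1 (log2) above the WT mean there. The 13 ran from -0.06 to 1.15 in KO replicate 4, with a median of 0.57. All 7 class II genes, Ciita and genes that it controls, were at least 1 (log2) above the WT mean in that mouse. Their mean was 1.31 there, against -0.22 to 0.22 in the other 3 KO mice. Of these 7, Ciita reached 6.33 FPKM there, against 1.6 to 2.61 FPKM in the WT mice. Of the 12118 genes tested, 78 were at least 1 (log2) above the WT mean in KO replicate 4, and 31 of these belonged to the members or these lists. Tested were 37 members, 46 further interferon-stimulated, 21 signalling, 13 class I and 7 class II genes. Without KO replicate 4, 45 of the further and 19 of the signalling genes reached the minimum, so some were tested only through that mouse. All were chosen with earlier results known, so the 31 are a description only.

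Several lists of leukocyte markers also stood higher in KO replicate 4, but not those of B and plasma cells or neutrophils. General leukocyte markers were above the other 7 mice there in 8 of 8 genes, with a summed level of 77.7 FPKM, against 44.8 to 54.3 FPKM in WT and 43.6 to 51.0 FPKM in the other KO mice. Macrophage markers were above the other 7 mice in 7 of 9 genes in the table and summed to 199 FPKM, against 111 to 119 FPKM in WT and 104 to 140 FPKM in the other KO mice. T and NK cell markers were above in 9 of 16 and summed to 18.1 FPKM, against 6.93 to 13.8 and 7.45 to 9.50 FPKM. Dendritic cell markers were above in 4 of 8 and summed to 8.22 FPKM, against 4.48 to 5.89 and 4.41 to 5.82 FPKM. B and plasma cell, neutrophil and endothelial markers were above in 1 of 7, 1 of 7 and 3 of 8. Under the minimum mean of 1 FPKM were 14 of the 16 T and NK cell, 6 of the 8 dendritic cell and 5 of the 7 neutrophil markers. So were 2 of the 9 macrophage and 2 of the 7 B and plasma cell markers. Counts of lists mostly under the minimum rest on low values. Of all genes tested, 12.5% were highest in KO replicate 4. B and plasma cell markers summed to 132 FPKM there, below the 163 to 289 FPKM in WT and within the 99.9 to 366 FPKM in the other KO mice. Neutrophil markers summed to 1.96 FPKM, against 1.19 to 3.66 and 1.31 to 4.42 FPKM. Endothelial markers summed to 286 FPKM, against 241 to 277 and 162 to 276 FPKM. No marker found in the table was at 0 in all mice, and the part of these cells in the members' values was not tested.

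Positions and shared sequence bear on some members. Psmb8, Psmb9, Tap1, Tap2 and Tapbp lie together in the MHC on chromosome 17, and Psmb9 and Tap1 share 212 exon bases on opposite strands. Irgm1, Igtp, Irf1, Xaf1 and Ifi35 lie on chromosome 11 with the deleted gene, Ifi35 the nearest of them at 17.0 Mb from C1qtnf1 and Irgm1 the farthest at 69.6 Mb. Of the members' 75-base transcript stretches in GENCODE M21, 47.6% of Oas1a were shared with Oas1g and 41.1% of Ifit3 with Ifit3b, so reads of these pairs may not have been told apart. The identifier in the row named Gbp6 is that of Gm43302 in M21, a model that shares 99.4% of its stretches with other gene models, and the identifier in the row named Gbp5 is that of Gbp2b. Values under these 2 names are therefore uncertain as to the gene.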

How the data were processed

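The deposited table holds one FPKM value per gene and mouse. HTSeq 0.6.1, STAR 2.5, DESeq2 2 and CASAVA are named with build mm10 in the submitters' processing notes; how the authors made the FPKM from counts is not given in the sources used here. Low FPKM values move in steps of 1 read, from which library totals (17884140 to 20344859 reads), gene lengths and whole reads were recovered for all 22945 genes above 0, within 0.002 reads. The GENCODE M21 exon length was taken where it gave whole reads, in 5865 genes. For the other genes the shortest length that gave whole reads was taken, so their read numbers are a minimum. Of each total, 99.9% was accounted for. Trimmed-mean factors from these reads (0.936 to 1.05) divided the FPKM before log2(FPKM + 1). Genes with a mean of at least 1 FPKM were fitted in limma 3.58.1 (R 4.3.3) with trend and robust options, WT against KO, with Benjamini-Hochberg adjustment over all 12118 genes and a threshold of 0.05. The script was tested on simulated data.

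The members and the other gene lists were chosen with earlier results of these data known, and so was the library left out. Per-mouse values are given for members whose groups do not overlap, the 10 lowest p, the 10 largest differences of KO replicate 4 and 1 to 3 of each role, and for other lists the genes past the threshold or a few of lowest p; the 7 further genes, Nlrc5, H2-K1, Ciita, Ifngr1, Ifngr2 and Ifnar1 were named after their values were seen. Replicates are separate mice and were numbered in the order of deposition, which pairs nothing. Alternatives were other scalings, pseudocounts, filters, limma options, array weights, limma-voom on the recovered reads, narrower lists and each mouse left out. Promoters came from RefSeq; gene models came from GENCODE M21. One gene of the signalling list is not reported here.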

Additional observations from a re-analysis of the deposited data

Results flagged for a closer look

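In groups of 4 mice, the gap between the highest or lowest value and its nearest neighbour was set against the group's whole range, and a share above Dixon's 95% critical value was taken as a mouse standing apart. Chance alone marks about 1 in 20 groups, but genes of 1 mouse are not independent and KO replicate 4 was picked with earlier results known, so these marks are a description and no support. Of the 74 groups of the 37 tested members, 8 were marked, 7 of them by KO replicate 4. In that mouse Igtp stood at 43.0, Irgm1 at 30.8, Gbp2 at 24.8, Gbp6 at 22.5, Gbp3 at 5.75, Oasl1 at 4.00 and Usp18 at 3.51 FPKM. The mean of the interferon-gamma targets in the same mouse, 1.40 on the log2 scale above WT, was marked as well. The other value was in a WT mouse: Tap1 at 4.63 FPKM in WT replicate 1, below 5.16 to 5.18 FPKM in the other WT mice. Leukocyte marker levels that were higher in KO replicate 4 are given with the results, and their part in these values was not tested.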

How the results depend on the processing

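No member passed the threshold under any alternative, in 646 pairs of member and setting, and the lowest adjusted p among them was 0.200 (limma). Of the 37 members, 26 kept the direction of their fold change under all alternatives and 11 turned under at least 1. Settings that keep all mice turned only Rsad2, to 0.0077 with upper-quartile factors and 0.077 with array weights, and Ifih1, to 0.0092 with array weights. Leaving out 1 mouse at a time gave -0.058 to 0.15 for Stat2, -0.048 to 0.045 for Rsad2, -0.11 to 0.048 for Ifih1, -0.095 to 0.34 for Parp14, -0.086 to 0.28 for Cmpk2, -0.15 to 0.14 for Irf8, -0.13 to 0.28 for Gbp5, -0.042 to 0.49 for Irgm1, -0.16 to 0.37 for Psmb9 and -0.11 to 0.50 for Tap1. The type I less interferon-gamma difference ran from -0.27 to 0.069, above 0 only without KO replicate 4, and was 0.115 without KO replicates 2 and 4, an alternative chosen after seeing the data. Under that same alternative Rsad2 was at 0.082, Irf8 at -0.11, Gbp5 at -0.020, Irgm1 at -0.084, Psmb9 at -0.16 and B2m at -0.057, where leaving out single mice gave 0.087 to 0.47 for B2m. The cause of these turns was not tested. The median fold change of interferon-gamma targets ran from 0.07 to 0.48 and that of type I targets from 0.11 to 0.28 when 1 mouse was left out, lowest without KO replicate 4 in both. No paired analysis was possible because the labels give the mice no shared numbers, litters or batches. Depth limits the 5 members under the minimum, which rest on 11 to 174 reads per library. It also limits low tested members, such as Isg15 on 40 to 114 reads and the row named Gbp5 on 34 to 174.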
